A study of Arabidopsis thaliana with 12 samples.

Results

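Transcripts of 4 genes of small cysteine-rich defence peptides were followed in whole Arabidopsis thaliana seedlings: the thionin gene THI2.1 (AT1G72260), AT1G66100, which is placed with the thionins here, the plant defensin gene PDF1.2 (AT5G44420), and AT3G05730, which is placed with the defensins here. Each has 1 probe set that the platform annotation pairs with that gene alone (259802_at, 256527_at, 249052_at and 258897_at), so the genes make up 4 of 22810 probe sets, and 4 of the 13513 with a single gene. They were chosen by their signal changes between control and stressed plates of both genotypes. Those changes are therefore given as a description, with no test, and tests are kept for the comparisons of the genotypes and for genes outside the 4. The study compared the wild type Col-0 with hai1-2, a mutant of HAI1 (At5g59220), whose product is one of the protein phosphatases that hold abscisic acid signalling in check. Seedlings grown on agar with half-strength salts and no sugar were moved at an age of 7 days to fresh control medium at -0.25 MPa or to plates at -1.2 MPa, where polyethylene glycol in the medium withholds water from the plant, and were harvested whole 96 h later. The 4 groups were Col-0 control, hai1-2 control, Col-0 stress and hai1-2 stress, with 3 arrays each, 1 per group from every one of 3 independent experiments. One mutant allele was used, and roots and shoots were not separated.

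Thionins and plant defensins are short secreted peptides, held in shape by disulphide bridges, and many of them damage the membranes of fungi and bacteria. THI2.1 and PDF1.2 are the classical Arabidopsis markers of jasmonate-dependent defence: THI2.1 is induced by methyl jasmonate and by infection, and PDF1.2 by jasmonate and ethylene together, through transcription factors of the ERF family. Abscisic acid, the hormone whose signalling HAI1 restrains, is known to hold down the branch to which PDF1.2 belongs. For AT1G66100 and AT3G05730 the reference used here gives no product name, and no further role is stated for them.

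The 12 arrays were similar in overall signal, with medians between 195 and 212 and correlations between pairs of arrays from 0.915 to 0.982. The level of HAI1 itself, to which the annotation assigns no probe set, was not analysed here as a check of the genotypes. Among signs of RNA quality, the signal of a 25S ribosomal RNA probe set was higher on stressed than on control plates without overlap, lying between 107 and 465 in Col-0 control and 608 and 1066 in Col-0 stress, and between 223 and 923 in hai1-2 control and 1031 and 2796 in hai1-2 stress. The 5' to 3' signal ratio of GAPDH also separated the plates, but in opposite directions: it was 0.983 to 1.02 in Col-0 control against 0.756 to 0.952 under stress, and 0.850 to 1.03 in hai1-2 control against 1.05 to 1.16 under stress. That of actin did not separate the groups and was lowest on Col-0 control replicate 3, at 0.268 in a range up to 0.564. The part of RNA quality in the stress changes below was not tested. In whole seedlings, fewer cells of a type and less transcript per cell cannot be told apart. All 4 shoot markers measured, of 21 listed, fell in both genotypes, where 16.1% of all probe sets tested fell in Col-0 and 17.8% in hai1-2. Their summed signal was 45434 to 58029 in Col-0 control, 52351 to 64830 in hai1-2 control, 28071 to 33917 in Col-0 stress and 26733 to 31690 in hai1-2 stress. The call of LHCB4.1, an antenna protein of photosystem II, was lost in Col-0 with quantile normalization (-0.33 against -0.49) and without replicate 1 or 2 of Col-0 control or replicate 2 of Col-0 stress (-0.40, -0.42 and -0.46). Of 3 root markers measured, of 10 listed, 2 rose in Col-0 and 3 in hai1-2, where 18.1% and 19.9% of all probe sets tested rose. The third in hai1-2 was PYK10, a beta-glucosidase of root endoplasmic reticulum bodies, at 0.40, whose call was lost with median centring, in a fit with no trend and with no filter, and without replicate 1 or 3 of hai1-2 control or any replicate of hai1-2 stress. It passed in Col-0 with quantile normalization alone, at 0.39. EXPA18, a root hair expansin, at 1.24 in hai1-2, lost its call without replicate 1 of either hai1-2 group (0.90 for control and 1.05 for stress). The summed root marker signal was 16345 to 16954, 14764 to 18260, 16036 to 23401 and 20978 to 23210 in the same order of groups. This sum is almost wholly PYK10, whose Col-0 control mean was 16390, beside 51.5 for EXPA7 and 115 for EXPA18. The root marker EXPA7 rose by 2.34 in Col-0 and 1.85 in hai1-2, and the median change of the 3 root markers was 1.41 and 1.24. The part of tissue proportions in the results below was not tested.

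THI2.1 was weak on control plates and abundant after 96 h at -1.2 MPa. Its signal, the brightness of the probe set on a linear scale, was 16.8, 38.6 and 42.7 on the Col-0 control arrays of experiments 1, 2 and 3, and 27.8, 57.7 and 46.0 on those of hai1-2. At -1.2 MPa it was 1841, 832 and 2134 in Col-0 and 3863, 3186 and 3378 in hai1-2. Every stressed array lay far above every control array, and the stressed hai1-2 arrays lay above the stressed Col-0 arrays. Group means were 32.7 ± 13.9 (SD, n = 3), 43.8 ± 15.1, 1603 ± 683 and 3475 ± 349 for Col-0 control, hai1-2 control, Col-0 stress and hai1-2 stress, an order in which the 2 control groups overlapped.

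On the scale of log2(signal + 16), used for all changes here, THI2.1 stood 4.99 ± 0.32 higher at -1.2 MPa in Col-0 (SE of the limma fit, 3 arrays per group) and 5.89 ± 0.32 higher in hai1-2. These were the changes with rank 30 and rank 20 from the top among 17059 probe sets tested. The control signals are close to the constant of 16 added before the logarithm, so the size of the rise depends on it: with 64 added it was 4.02 in Col-0 and 5.04 in hai1-2, and with 1 added 5.57 and 6.33. Within experiments 1, 2 and 3 the difference was 5.82, 3.96 and 5.19 in Col-0 and 6.47, 5.44 and 5.77 in hai1-2. Experiment 2 gave the smallest rise in both genotypes.

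**Figure D1:**
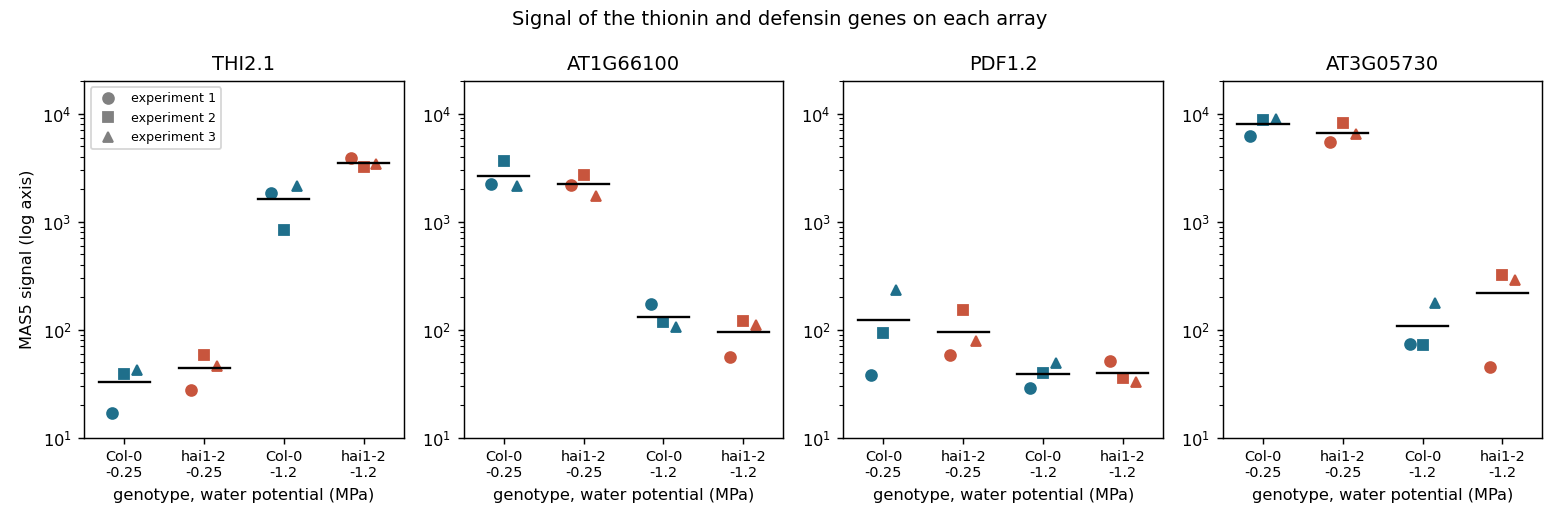
MAS5 signal (log axis) of THI2.1, AT1G66100, PDF1.2 and AT3G05730 on each of the 12 arrays, by genotype and water potential in MPa. Points are single arrays, marked by experiment, in blue for Col-0 and red for hai1-2, and black bars are group means. THI2.1 goes from 16.8 to 57.7 on control plates to 832 to 3863 at -1.2 MPa, AT1G66100 and AT3G05730 go the other way, and PDF1.2 stays under 235 on every array.

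AT1G66100 went the opposite way from THI2.1. It was a strong signal on control plates, with 2241, 3612 and 2145 in Col-0 and 2191, 2700 and 1733 in hai1-2 in experiments 1 to 3. At -1.2 MPa it was 173, 119 and 105 in Col-0 and 55.5, 121 and 110 in hai1-2. The lowest control array was thus about an order of magnitude above the highest stressed array, while the genotypes overlapped on both kinds of plate. Group means were 2666 ± 821 (SD, n = 3) for Col-0 control, 2208 ± 484 for hai1-2 control, 132 ± 35.9 for Col-0 stress and 95.5 ± 35.1 for hai1-2 stress, and neighbours in that order differed beyond their spread only between hai1-2 control and Col-0 stress.

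The change of AT1G66100 was -4.16 ± 0.28 on the log2 scale in Col-0 and -4.35 ± 0.28 in hai1-2 (SE), the change with rank 9 from the bottom of 17059 in each. Within experiments 1, 2 and 3 it was -3.58, -4.75 and -4.16 in Col-0 and -4.95, -4.31 and -3.80 in hai1-2. Experiment 1 gave the smallest fall in Col-0 and the largest in hai1-2. Expressed as a ratio on that scale, the falls were 17.9-fold and 20.4-fold. In log2, the shoot marker genes changed by a median of -0.90 in Col-0 and -1.02 in hai1-2, beside -4.16 and -4.35 for AT1G66100. The part of tissue proportions in this fall was not tested.

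AT3G05730 was the brightest of the 4 probe sets on control plates, with signals of 6211, 8642 and 8937 in Col-0 and 5419, 8137 and 6464 in hai1-2. At -1.2 MPa the signals were 73.4, 72.6 and 176.7 in Col-0 and 45.2, 322 and 290.4 in hai1-2. No stressed array came within an order of magnitude of a control array. Among the stressed hai1-2 arrays, that of experiment 1 was far below the other two and also below all 3 stressed Col-0 arrays. Group means were 7930 ± 1496 (SD, n = 3) for Col-0 control, 6673 ± 1371 for hai1-2 control, 219 ± 152 for hai1-2 stress and 108 ± 59.9 for Col-0 stress.

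The change of AT3G05730 was -6.09 ± 0.51 in Col-0 and -5.16 ± 0.51 in hai1-2 (SE), rank 2 from the bottom of 17059 in both genotypes. Within experiments 1, 2 and 3 it was -6.12, -6.61 and -5.54 in Col-0 and -6.47, -4.59 and -4.40 in hai1-2. The value in hai1-2 leaned on 1 array, since without hai1-2 stress replicate 1 it was -4.36. The scatter of AT3G05730 around its group means, 0.79 on the log2 scale, was larger than that of 98.9% of probe sets tested, against a median of 0.24 for all of them. High scatter was not particular to AT3G05730: it was 0.66 for PDF1.2 (larger than 97.6%), 0.47 for THI2.1 (91.9%) and 0.40 for AT1G66100 (86.0%).

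PDF1.2 was weak in all 4 groups and varied most between experiments on control plates. Its control signals were 38.1, 93.2 and 234 in Col-0 and 58.0, 152 and 78.1 in hai1-2. At -1.2 MPa they were 28.6, 39.6 and 49.2 in Col-0 and 51.2, 35.6 and 33.0 in hai1-2. All 6 stressed arrays lay between 28.6 and 51.2, and the Col-0 control array of experiment 1 lay within that range, so the Col-0 groups overlapped, while those of hai1-2 did not. Group means were 122 ± 101 (SD, n = 3) for Col-0 control, 95.9 ± 49.2 for hai1-2 control, 39.9 ± 9.84 for hai1-2 stress and 39.1 ± 10.3 for Col-0 stress, and the SD ranges of neighbours in that order overlapped throughout.

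The change of PDF1.2 was -1.06 ± 0.45 in Col-0 and -0.93 ± 0.45 in hai1-2 (SE). It was lower on the stressed array of every pair, by -0.28, -0.97 and -1.94 in experiments 1, 2 and 3 of Col-0 and by -0.14, -1.70 and -0.94 in those of hai1-2. Experiment 1 showed almost no difference in either genotype. The value in Col-0 ran from -0.50 without Col-0 control replicate 3, the array with the lowest actin ratio, to -1.60 without Col-0 control replicate 1, and that in hai1-2 was -0.59 without hai1-2 control replicate 2. THI2.1 was higher on the stressed array in 6 of 6 pairs, by at least 3.96. PDF1.2 was lower in 6 of 6, with values from -1.94 to -0.14 that lay closer to their scatter. The upper end of the 95% interval of PDF1.2 was 0.03 for hai1-2 and -0.10 for Col-0. Both directions were known when these 2 jasmonate markers were chosen, so nothing is read from these counts or from the contrast of the 2 genes.

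**Figure D2:**
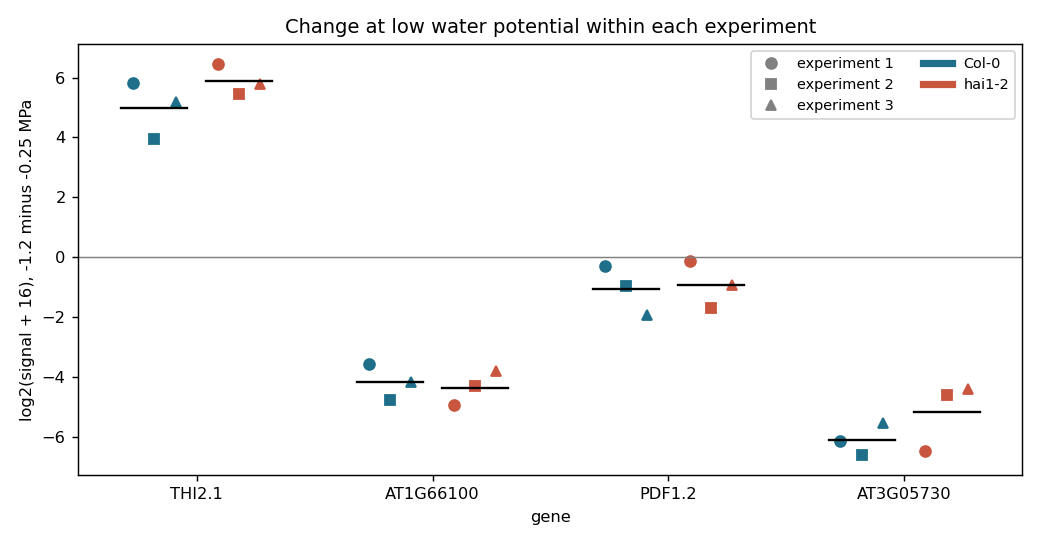
Difference in log2(signal + 16) between the stressed and the control array of the same experiment for each gene, in blue for Col-0 and red for hai1-2. Points are the 3 experiments and bars their means. All points of THI2.1 lie between 3.96 and 6.47, those of AT1G66100 between -4.95 and -3.58, those of AT3G05730 between -6.61 and -4.40, and those of PDF1.2 between -1.94 and -0.14.

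Counted together, control and stressed arrays did not overlap for 3 of the 4 genes in Col-0, where this held for 44.7% of all probe sets tested, and for 4 of 4 in hai1-2, where it held for 52.0%. Over all probe sets, 34.2% passed the limma test in Col-0 and 37.6% in hai1-2. Because these contrasts were known when the genes were chosen, nothing is read from those counts.

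The genes whose profiles over the 12 arrays were most like those of the 4 were sought among 9395 other single-gene probe sets, by the root mean square difference of log2 values after centring each gene on its own mean. For THI2.1 they were AT1G16850 (0.55), COR15A, a chloroplast protein of cold- and drought-treated leaves (0.58), and AT4G33550 (0.63). COR15A stood at 5.84 in Col-0 and 5.88 in hai1-2, and AT1G16850 at 5.13 and 6.16. For AT1G66100 they were AT2G10940 (0.34), AT1G66940 (0.35) and AT2G41090 (0.36), and for AT3G05730 AT3G16670 (0.44), AT1G22690 (0.54) and AT5G62360 (0.75). AT3G16670 stood at -6.07 in Col-0 and -4.52 in hai1-2, beside -6.09 and -5.16 for AT3G05730. For PDF1.2 they were AT5G07870 (0.29), MCCA, a subunit of the carboxylase of leucine breakdown (0.33), and AT2G37540 (0.33). None of these 12 genes is one of the other thionins or defensins measured. Of those only 7 were tested, few beside 9395 probe sets, so nothing is read from their absence.

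Few of the remaining thionins and defensins could be tested, and no direction of the families is read from their counts. By fixed lists and by gene names that contain thionin, defensin or low-molecular-weight cysteine-rich, 97 loci belong to these families, and 14 besides the 4 described have a single-gene probe set. Of these, 7 were too weak to be tested: the thionin AT2G15010, the defensins PDF1.1, PDF2.4, PDF2.6, PDF3.1 and PDF3.2, and LCR24, none of which had a group mean above 28.1. Of the 7 tested, 2 rose and 1 fell in Col-0, and 2 rose and 1 fell in hai1-2 (limma, Benjamini-Hochberg adjusted p under 0.05), where 18.1% and 16.1% of all probe sets tested rose and fell in Col-0, and 19.9% and 17.8% in hai1-2. The median change of the 7 was 0.43 in Col-0 and -0.07 in hai1-2, against 0.07 and 0.07 over all probe sets tested.

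Among the thionins, THI2.2, the close relative of THI2.1 that is known to be expressed in seedlings without jasmonate, was the one that fell. Its signal was 250.4, 277 and 270.5 on Col-0 control arrays and 263, 312 and 335 on those of hai1-2. At -1.2 MPa it was 3.70, 11.7 and 19.3 in Col-0 and 9.90, 44.9 and 42.1 in hai1-2. Control and stressed arrays did not overlap, and the change was -3.39 ± 0.31 in Col-0 (SE, limma adjusted p = 1.8e-06) and -2.82 ± 0.31 in hai1-2 (limma adjusted p = 8.4e-06). The stressed signals lie around the constant of 16, so the size of the fall depends on it: it was -4.64 in Col-0 and -3.44 in hai1-2 with 1 added, and -2.13 and -1.95 with 64 added. THI2.2 thus fell in both genotypes, as AT1G66100 did, while its paralogue THI2.1 rose. The directions of THI2.1 and AT1G66100 were known when these 2 genes were chosen, so nothing is read from this contrast.

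Among the defensins of the PDF1 group, PDF1.2b had fitted changes near those of PDF1.2, at -0.85 ± 0.57 in Col-0 and -0.93 ± 0.57 in hai1-2 (SE, limma adjusted p = 0.272 and 0.218). Within experiments 1, 2 and 3 they were 0.76, -2.09 and -1.22 in Col-0 and -1.35, -1.14 and -0.29 in hai1-2. Its lowest signals were 9.4 on Col-0 control and 4.8 on Col-0 stress arrays, under the constant of 16. PDF1.2b passed in Col-0 without Col-0 control replicate 1, at -1.60, and in hai1-2 in a fit to the hai1-2 arrays alone. Its probe set, marked by the suffix x_at, is of the type that can bind near-identical transcripts, and PDF1.2 has such copies, so signals of PDF1.2 and PDF1.2b may not be fully separate. PDF1.4 rose in hai1-2, by 1.29 ± 0.35 (limma adjusted p = 0.0104), from 73.5, 63.1 and 91.8 to 267, 238 and 140.2. In Col-0 it stood at 0.89 ± 0.35 without passing (adjusted p = 0.0644), and passed without either of 2 control arrays (1.13 without replicate 2 and 1.16 without replicate 3 of Col-0 control). The difference between these 2 responses of PDF1.4 was 0.40 ± 0.50 (limma adjusted p = 0.990).

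The PDF2 group held the largest rise among the defensins. PDF2.1 lay between 178 and 239 on Col-0 control arrays and between 1334 and 1748 after stress, a rise of 2.84 ± 0.21 (SE, limma adjusted p = 3.0e-07), and between 309 and 382 and then 1142 and 2104 in hai1-2, a rise of 2.08 ± 0.21 (adjusted p = 4.1e-06). PDF2.5 rose in Col-0 by 0.95 ± 0.21 (limma adjusted p = 0.00292) and stood at 0.41 ± 0.21 in hai1-2 (adjusted p = 0.136). PDF2.2 and PDF2.3, whose group means were between 4402 and 12061, did not pass in either genotype. PDF2.2 stood at 0.31 in Col-0, or -0.08 without Col-0 control replicate 3, and at -0.28 in hai1-2, and PDF2.3 at 0.43 and -0.07 (limma adjusted p from 0.135 to 0.829 in these 4 comparisons). PDF2.3 passed in Col-0 without Col-0 control replicate 1, at 0.71. The count of these genes that rose in Col-0 was thus 3, not 2, without any one of the Col-0 control arrays. AT3G05730, placed with the defensins here, was lower by -6.09 and -5.16. Its direction was known when it was chosen, so nothing is read from its contrast with these defensins.

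**Figure D3:**
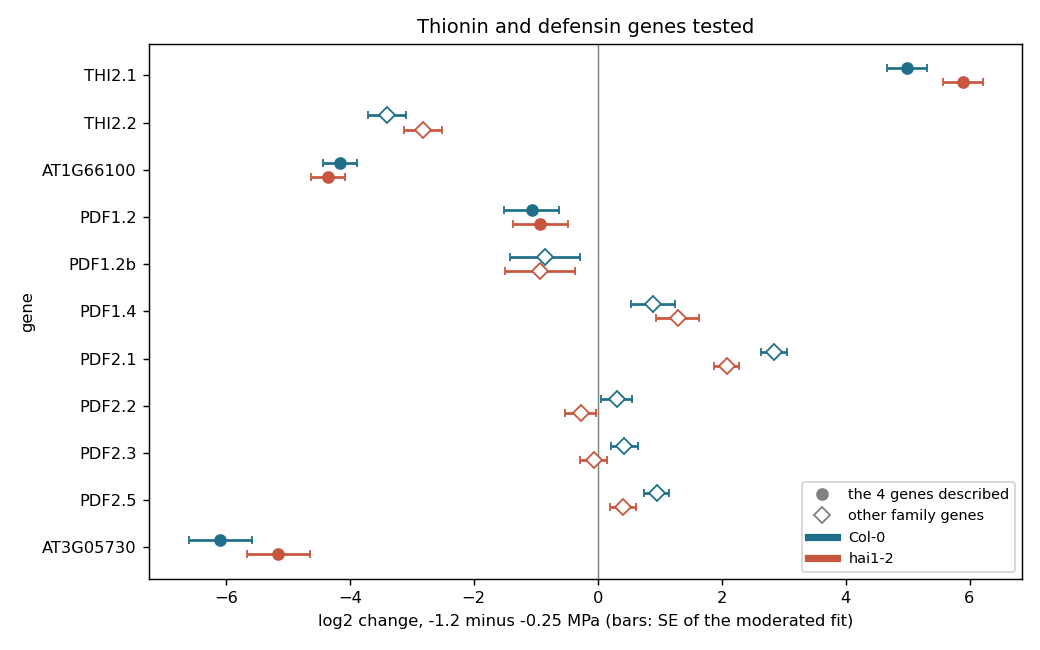
Log2 change from -0.25 to -1.2 MPa of the 11 thionin and defensin genes with enough signal to be tested, in blue for Col-0 and red for hai1-2. Points are fitted changes and bars their SE, filled circles are the 4 genes described and open diamonds the other family genes. THI2.1 and PDF2.1 lie furthest to the right, and AT3G05730, AT1G66100 and THI2.2 furthest to the left.

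Most genes of the jasmonate and ethylene pathways are not named by the annotation used here. Of the few tested, JRG21 alone passed, where 34.2% of all probe sets passed in Col-0 and 37.6% in hai1-2. So few genes do not describe the pathways. Of 19 loci of jasmonate synthesis and turnover, 3 were measured and 1 tested, OPCL1, a ligase of the last steps, which did not pass at 0.40 in Col-0 and 0.37 in hai1-2 (limma adjusted p = 0.175 and 0.204). Without Col-0 control replicate 3 OPCL1 passed in Col-0, at 0.63. Of 18 loci of jasmonate signalling, the transcription factors MYC3 (-0.06 and 0.40) and MYC4 (0.08 and 0.14) were tested and did not pass, and no locus of 7 typical MYC-branch responses was measured. Of 14 loci of the ethylene and ERF branch, EIN3, the central transcription factor of ethylene signalling, was tested and did not pass at -0.40 and -0.18 (limma adjusted p = 0.0687 and 0.408). Without Col-0 control replicate 1, EIN3 passed in Col-0, at -0.51, and it did so with median centring, at -0.46. Among genes named for jasmonate, JRG21, a jasmonate-induced oxygenase that inactivates jasmonic acid, was the one tested, and it rose by 2.03 ± 0.60 in Col-0 and 3.33 ± 0.60 in hai1-2 (SE, limma adjusted p = 0.0180 and 6.4e-04). The call of JRG21 in Col-0 was lost without replicate 1 or 2 of Col-0 control (1.56 and 1.90) or replicate 1 or 2 of Col-0 stress (1.86 and 1.93). Its hai1-2 control signals were 5.8 to 39.6, and its rise in hai1-2 was 4.41 with 1 added and 2.2 with 64 added, beside 2.41 and 1.42 in Col-0.

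Of 19 loci of chitinases, glucanases and other pathogenesis-related proteins, 4 were tested, and 3 rose in each genotype, beside 18.1% and 19.9% of all probe sets tested. The class V chitinase ChiC rose by 2.83 ± 0.18 in Col-0 and 1.82 ± 0.18 in hai1-2, the osmotin-like OSM34 by 2.25 ± 0.27 and 1.82 ± 0.27, and the chitinase gene CHI by 2.75 ± 0.51 and 2.70 ± 0.51 (SE, limma adjusted p from 1.0e-07 to 9.2e-04), while PR-1-LIKE did not pass at 0.27 and 0.03. The median of these 4 was 2.502 in Col-0 and 1.82 in hai1-2. Of 14 loci of salicylic acid defence, SAG101, a partner of the immune regulator EDS1, at -0.26 and -0.51, and GRX480, a glutaredoxin known to repress PDF1.2 when overexpressed, at 0.32 and 0.50, were tested and did not pass. Without hai1-2 stress replicate 3 GRX480 passed in hai1-2, at 0.90. Lipid transfer proteins and snakin or GASA peptides were sought by gene name and synonym alone, which matched no single-gene probe set, and these families were not analysed here. Members that carry only a locus number would be missed by this search, so some may be among the genes measured.

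The neighbours of the 4 genes on the chromosomes, within 2 protein-coding genes on either side in TAIR10.1, gave few measured values. Beside THI2.1, AT1G72240 (0.55 and 0.87 in Col-0 and hai1-2) and AT1G72250 (0.08 and -0.05) did not pass. Beside AT1G66100, AT1G66090 fell, by -1.08 and -0.93 (limma adjusted p = 0.0213 and 0.0392), and AT1G66080 did not pass at 0.19 and 0.12. Beside PDF1.2, which lies next to its copy PDF1.2c, AT5G44400 fell, by -0.72 and -1.19 (limma adjusted p = 0.00818 and 2.1e-04), and AT5G44410 did not pass at -0.20 and 0.15. No neighbour of AT3G05730 was tested.

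Whether the loss of HAI1 altered these genes was asked first on control plates. There none of the 4 passed, as none of the 17059 probe sets did (limma, 0.0% called, and 3.2% with an unadjusted p under 0.05). The difference of hai1-2 from Col-0 was 0.31 for THI2.1 (95% interval -0.38 to 0.996), -0.25 for AT1G66100 (-0.85 to 0.34), -0.11 for PDF1.2 (-1.07 to 0.85) and -0.25 for AT3G05730 (-1.34 to 0.84), each with a limma adjusted p of 0.999. The 2 groups overlapped for all 4 genes, and 6.41% of all probe sets tested had groups that did not. THI2.1 was higher in hai1-2 in 3 of 3 experiments and AT1G66100 and AT3G05730 lower in 3 of 3, and the intervals of THI2.1, PDF1.2 and AT3G05730 include differences of about 2-fold or more. Without Col-0 control replicate 3, the difference of PDF1.2 was 0.45. None of the 7 other thionins and defensins tested passed either. PDF2.1 stood highest of them, at 0.74 ± 0.21, then PDF2.3, at 0.71 ± 0.21 (SE, limma adjusted p = 0.999 for both). Both were higher in hai1-2 in 3 of 3 experiments, with groups that did not overlap. PDF1.4 stood lowest, at -0.48 ± 0.35.

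At -1.2 MPa the largest difference between genotypes among the 4 was that of THI2.1, which was higher in hai1-2 in 3 of 3 experiments, by 1.06, 1.92 and 0.66 on the log2 scale. The stressed hai1-2 arrays, at 3186 to 3863, did not overlap the stressed Col-0 arrays, at 832 to 2134, as was so for 14.1% of all probe sets tested. The fitted difference was 1.21 ± 0.32 (SE), a 2.32-fold higher level with a 95% interval of 0.53 to 1.90 on the log2 scale, and it was rank 12 from the top of 17059. It did not pass after adjustment over all probe sets (limma adjusted p = 0.598, unadjusted p = 0.00203), in a comparison in which 1 probe set passed (0.00586% called) and 5.59% had an unadjusted p under 0.05. Its adjusted p was at most 0.827 in the other fits to all 12 arrays, was 0.261 in a fit to the 6 stressed arrays alone, and lay between 0.430 and 0.9999 with 1 array left out. Without Col-0 stress replicate 2, the lowest of the stressed arrays for THI2.1, the difference was 0.80. The 5' to 3' ratio of GAPDH also separated these 2 groups, lying between 0.756 and 0.952 in stressed Col-0 and between 1.05 and 1.16 in stressed hai1-2, and its part in the difference was not tested.

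The other 3 genes did not pass at -1.2 MPa either. AT3G05730 stood at 0.69 (95% interval -0.40 to 1.77, limma adjusted p = 0.993), higher in hai1-2 in experiments 2 and 3 and lower in experiment 1. Its difference was 1.48 without hai1-2 stress replicate 1 and 0.25 without hai1-2 stress replicate 2. AT1G66100 stood at -0.44 (-1.03 to 0.15, limma adjusted p = 0.990) and PDF1.2 at 0.02 (-0.94 to 0.98, limma adjusted p = 0.997). For AT1G66100 the difference lay in experiment 1, at -1.40, against 0.03 and 0.05 in experiments 2 and 3, and without hai1-2 stress replicate 1 it was -0.15. The same array, hai1-2 stress replicate 1, was thus the lowest of its group for AT1G66100 and AT3G05730, and the highest for THI2.1. Of the related genes, THI2.2 stood at 0.75 ± 0.31 at -1.2 MPa (limma adjusted p = 0.864), higher in hai1-2 in 3 of 3 experiments.

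The test of whether the response to low water potential itself differed between genotypes, the interaction, passed for none of the 4 genes, with 1 probe set of 17059 called (0.00586%) and 4.29% at an unadjusted p under 0.05. The response of hai1-2 minus that of Col-0 was 0.90 ± 0.45 for THI2.1 (SE, 95% interval -0.07 to 1.87), 0.93 ± 0.72 for AT3G05730 (-0.60 to 2.47), -0.19 ± 0.39 for AT1G66100 (-1.03 to 0.65) and 0.14 ± 0.63 for PDF1.2 (-1.22 to 1.495), with limma adjusted p between 0.990 and 0.998. These intervals include differences of about 2-fold or more in at least 1 direction for every gene, so equal responses are not shown. Leaving out hai1-2 stress replicate 1 took the value of AT3G05730 to 1.73. None of the 7 other thionins and defensins passed in the interaction, where PDF2.1 had the lowest unadjusted p, at -0.77 ± 0.29 (limma unadjusted p = 0.0213, adjusted p = 0.990), beside a control level that was higher in hai1-2 (309 to 382) than in Col-0 (178 to 239).

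**Figure D4:**
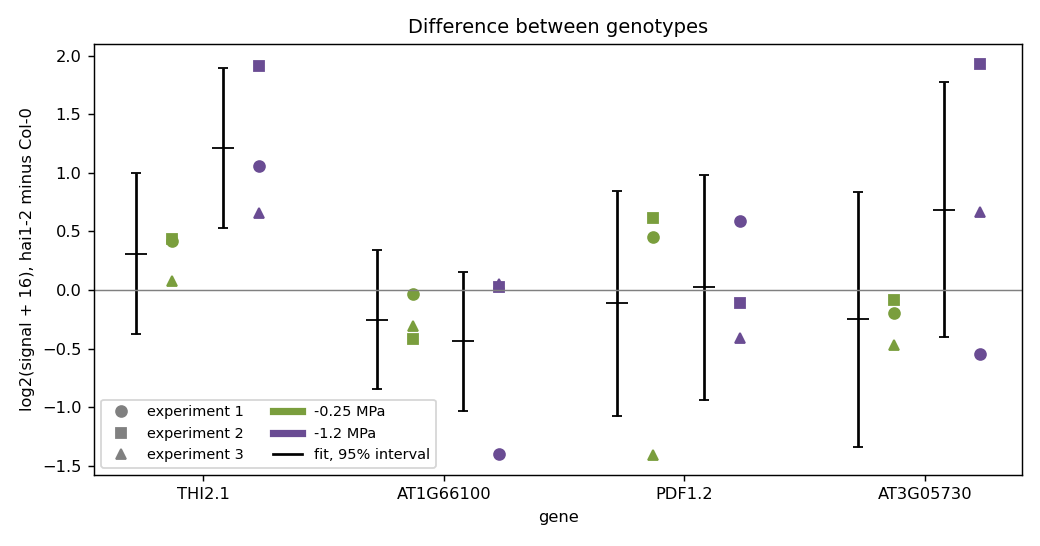
Difference between hai1-2 and Col-0 in log2(signal + 16) for each gene, in green at -0.25 MPa and purple at -1.2 MPa. Coloured points are the 3 experiments and black bars the fitted difference with its 95% interval. Only the interval of THI2.1 at -1.2 MPa, 0.53 to 1.90, which is not adjusted for the number of probe sets, leaves out 0.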

How the data were processed

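Whole-seedling RNA of 12 samples was measured on one-colour Affymetrix arrays with biotin-labelled cRNA, 1 array per sample. The authors deposited linear signal intensities from MAS5, per the submitters' processing notes. On every array the mean intensity without the outer 2% at each end was 500.0, so no further normalization was made. The number of arrays limits the precision, and detection calls were not used here.

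Groups came from the sample titles. Signals were taken as log2(signal + 16), which understates changes of weak genes. The 64 control probe sets and the lowest 25% by mean log2 (5687) were left out, and limma 3.58.1 (R 4.3.3) was fitted to the 17059 others with a mean per group, an intensity trend, two-sided tests and Benjamini-Hochberg adjustment, called under 0.05. The fit was tested first on simulated data with set differences between stressed genotypes. There a true log2 difference of 1 was called in 50.0% of cases and one of -1 in 68.0%. Differences of 3 and -3 were called in 100% of cases, and 0.0474% of unchanged probe sets were called. Many probe sets held a set difference there, which eases the adjusted threshold. In the real comparison at -1.2 MPa, 1 probe set passed. The scatter of the 4 genes, 0.40 to 0.79, was also above the median of 0.24. These shares therefore do not tell how often such differences of the 4 genes would be called.

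Names came from the platform annotation, updated through TAIR10.1. Named genes are the 4 genes, all measured thionins and defensins, up to 3 called and 2 uncalled genes of each other list, the 3 nearest profiles and chromosomal neighbours, the last added after values were seen. Product descriptions were not at hand, so the list keywords were matched to gene names and synonyms, with thionin limited to the start of a word so as to leave out methionine. The genes and lists were chosen with earlier results of these data known. Sequences were not used here.

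The replicate number pairs arrays, since by the design text every experiment supplied 1 array per group. Same-numbered arrays deviated together from their group means between genotypes (correlations 0.128 to 0.517 for controls, 0.227 to 0.263 for stress) but hardly between plates (Col-0 -0.0232 to 0.0929, hai1-2 -0.0199 to 0.0886). Alternatives were constants of 1 and 64, other filters, quantile normalization, median centring, the experiment as a block, no trend, only the arrays compared, and leaving out each array.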

Additional observations from a re-analysis of the deposited data

How the results depend on the processing

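All changes of the 4 genes under stress kept their direction under every alternative run. The added constant moved the changes of THI2.1 in both genotypes and of AT1G66100 in hai1-2 by more than the spread between replicates: with 64 added, THI2.1 stood at 4.02 in Col-0 and 5.04 in hai1-2 and AT1G66100 at -3.84 in hai1-2, and with 1 added THI2.1 stood at 6.33 in hai1-2. PDF1.2 was removed with the lower 50% of probe sets and has no value there. No genotype difference or interaction of the 4 genes passed under any alternative. With the experiment as a replicate block, 1 probe set was called between genotypes on control plates and 3 at -1.2 MPa, none of them among the 4 genes, and no call on the 4 genes changed. At -1.2 MPa, 2 were called with 64 added, with no trend and with only the arrays compared. Leaving out 1 array gave 0 to 1 calls on control plates and 1 to 2 at -1.2 MPa. Some differences near 0 changed sign without passing. Between genotypes at -1.2 MPa PDF1.2 was -0.038 with quantile normalization and -0.12 to 0.15 without 1 array, on control plates -0.65 to 0.45 without 1 array, and in the interaction -0.43 to 0.67. The interaction of AT1G66100 ran from -0.43 to 0.10 without 1 array. Of the other thionins and defensins, with the lower 50% removed THI2.2, PDF1.4 and PDF1.2b were not tested, which left 0 falls in Col-0, 0 in hai1-2 and 1 rise in hai1-2. With only the arrays compared 2 fell in hai1-2, and without 1 array 1 to 2 fell in Col-0. Among genes that did not pass, PDF2.3 in hai1-2 was 0.039 with quantile normalization and PR-1-LIKE in hai1-2 was -0.048 with it and -0.034 with median centring. Without 1 array, PR-1-LIKE in hai1-2 ran from -0.29 to 0.34, PDF2.2 in Col-0 from -0.076 to 0.54, MYC3 in Col-0 from -0.27 to 0.15, MYC4 from -0.27 to 0.41 in Col-0 and from -0.056 to 0.41 in hai1-2, and SAG101 in Col-0 from -0.57 to 0.028. The cause of these shifts was not tested. The signals of PDF1.2 in all groups and of THI2.1 on control plates are weak, 234 or less and 57.7 or less, which limits the precision of their log2 values.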
